A study of Mus musculus with 17 samples.

Results

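The neutrophil and granule genes are 40 listed genes of the neutrophil lineage among the 54146 gene IDs of a mouse lung RNA-seq series. They were taken by gene symbol from the series FPKM table (fragments scaled by gene length and library size) and joined to the counts by gene ID, and all 40 were found. By role, 22 of the tested members are mature neutrophil genes, 2 are late granule proteases, 6 are specific granule genes and 1 is an azurophil granule gene. The other 9 members had too few counts to be tested. The libraries came from lungs of Clic4 KO mice at day 14 (n = 5), WT mice at day 14 (n = 6), Clic4 KO mice at day 0 (n = 2) and WT mice at day 0 (n = 4), all labelled strain FVB/6DT1. Clic4 encodes a chloride intracellular channel protein. Mice sampled on day 14 were labelled as 8 weeks of age and those sampled on day 0 as 6 weeks, and effects of day and of age cannot be told apart, and the labels used here do not state what was done between the days. How the Clic4 allele was made, and in which cells, is not given in the sources used here.

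Neutrophils are made in the bone marrow, and they load their granules in a fixed order. Promyelocytes fill azurophil granules with myeloperoxidase and serine proteases. Myelocytes fill specific granules with lactoferrin, cathelicidin and neutrophilic granule protein. Later stages add gelatinase granules and surface receptors, and stop transcribing the earlier sets, so that a circulating or tissue neutrophil carries calprotectin and receptor mRNA but little mRNA for myeloperoxidase or elastase. The lung holds a large pool of such cells in its capillaries.

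The promoters of 4 members are shown because the results set these genes against each other as pairs: S100a8 with S100a9 among the mature genes, and Camp with Ngp among the specific granule genes. The sequences are RefSeq windows of 300 bases on GRCm38.p6, written 5′ to 3′ on the gene's strand. They run from 250 bases before to 50 bases after the start used for each window. For S100a8, Camp and Ngp that start differs from the start of the gene in GENCODE. Capitals mark matches on either strand to TTGCNNAA, a C/EBP family motif, or to GAGGAAG, a PU.1 motif.
S100a8 (chr3:90668821-90669120, plus strand): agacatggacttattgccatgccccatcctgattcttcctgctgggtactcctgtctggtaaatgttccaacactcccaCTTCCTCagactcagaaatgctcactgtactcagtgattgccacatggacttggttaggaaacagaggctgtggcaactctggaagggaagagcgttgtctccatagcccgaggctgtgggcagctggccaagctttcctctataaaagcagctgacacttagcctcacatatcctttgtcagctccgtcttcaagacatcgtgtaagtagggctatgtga
S100a9 (chr3:90695672-90695971, minus strand): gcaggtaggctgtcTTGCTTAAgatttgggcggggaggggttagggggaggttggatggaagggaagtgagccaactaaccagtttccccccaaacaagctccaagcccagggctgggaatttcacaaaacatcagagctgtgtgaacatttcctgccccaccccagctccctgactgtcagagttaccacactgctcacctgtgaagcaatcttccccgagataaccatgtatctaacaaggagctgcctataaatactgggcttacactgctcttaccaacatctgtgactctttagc
Camp (chr9:109849407-109849706, minus strand): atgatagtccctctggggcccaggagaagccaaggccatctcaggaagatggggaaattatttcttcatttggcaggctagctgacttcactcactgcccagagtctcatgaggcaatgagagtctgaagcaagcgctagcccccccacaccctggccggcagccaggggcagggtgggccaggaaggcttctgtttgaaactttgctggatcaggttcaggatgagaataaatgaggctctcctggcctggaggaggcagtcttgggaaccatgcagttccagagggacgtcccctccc
Ngp (chr9:110419558-110419857, plus strand): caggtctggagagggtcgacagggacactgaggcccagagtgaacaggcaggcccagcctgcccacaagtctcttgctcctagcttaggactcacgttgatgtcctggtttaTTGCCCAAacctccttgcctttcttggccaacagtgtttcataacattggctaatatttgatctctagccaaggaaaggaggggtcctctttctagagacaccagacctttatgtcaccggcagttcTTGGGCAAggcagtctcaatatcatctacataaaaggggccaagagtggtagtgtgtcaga
The C/EBP letters stood in 11 of the 37 windows of the 36 members that have one, and in 10.8% of 32851 mouse windows. The PU.1 letters stood in 14 of the 37 windows and in 13.63% of all windows. The windows of S100a8 and S100a9 each hold 1 match, that of Ngp holds 2 and that of Camp holds none. Such matches describe letters and not bound sites.

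Depth ran from 20607811 counts in KO day 14 library 5 to 35743830 counts in WT day 14 library 4. The next lowest was KO day 14 library 2, with 24463846 counts. Clic4 fell in KO lungs against WT lungs by 1.53 on the log2 scale at day 0 (SE 0.133, edgeR adjusted p = 1.93e-05) and by 1.64 at day 14 (SE 0.09, adjusted p = 9.95e-09), with 302 to 399 CPM in KO libraries, against 925 to 1281 CPM in WT libraries. Alveolar type 2 genes mark an epithelial cell type of the lung. They summed to between 17160 and 24930 CPM (counts scaled to 1e+06 per library, with composition factors) in every library. The libraries that bear on what follows are KO day 14 library 5, whose red cell genes summed to 31870 CPM against 5811 to 14050 CPM in the other libraries, and KO day 14 library 2, whose S100a8, S100a9, Retnlg, Csf3r, Mmp9 and Il1b levels lay below both KO day 0 libraries. Nothing in the labels says that the libraries of a group came from separate mice, so p-values measure the spread between these libraries. In whole tissue, more neutrophils and more of a transcript per neutrophil cannot be told apart.

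Most genes of mature neutrophils had higher mean levels at day 14 than at day 0 in both genotypes, about 4-fold for calprotectin. The day 14 libraries spread widely, and no member passed the test in either genotype alone. Of the genes tested, 31 are members, and edgeR's quasi-likelihood test called 0 of them at an adjusted p under 0.05 in KO lungs (0% of the 19557 genes were called) and 0 in WT lungs (0% called). At an unadjusted p under 0.05, 7 members were higher at day 14 in KO lungs, where 4.33% of all genes were, and 18 in WT lungs, where 4.72% were. DESeq2 called 1 member in KO lungs, Ifitm1, where it called 0.539% of the genes to which it gave an adjusted p. It called 5 members in WT lungs, Clec4d, Stfa2l1, Ifitm1, Camp and Ngp, where it called 0.669% of such genes. The median log2 fold change over the tested members was 1.06 in KO lungs, beside 0.0105 over all genes, and 0.996 in WT lungs, beside 0.00164 over all genes. Since a gene low in every group was not tested, these counts and medians describe the tested members and not all 40. A scarce gene could also pass the filter on low counts through its day 14 libraries alone, as Ly6g did. Its place among the 18 and in the medians therefore rests in part on the libraries where it was high.

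**Figure D1:**
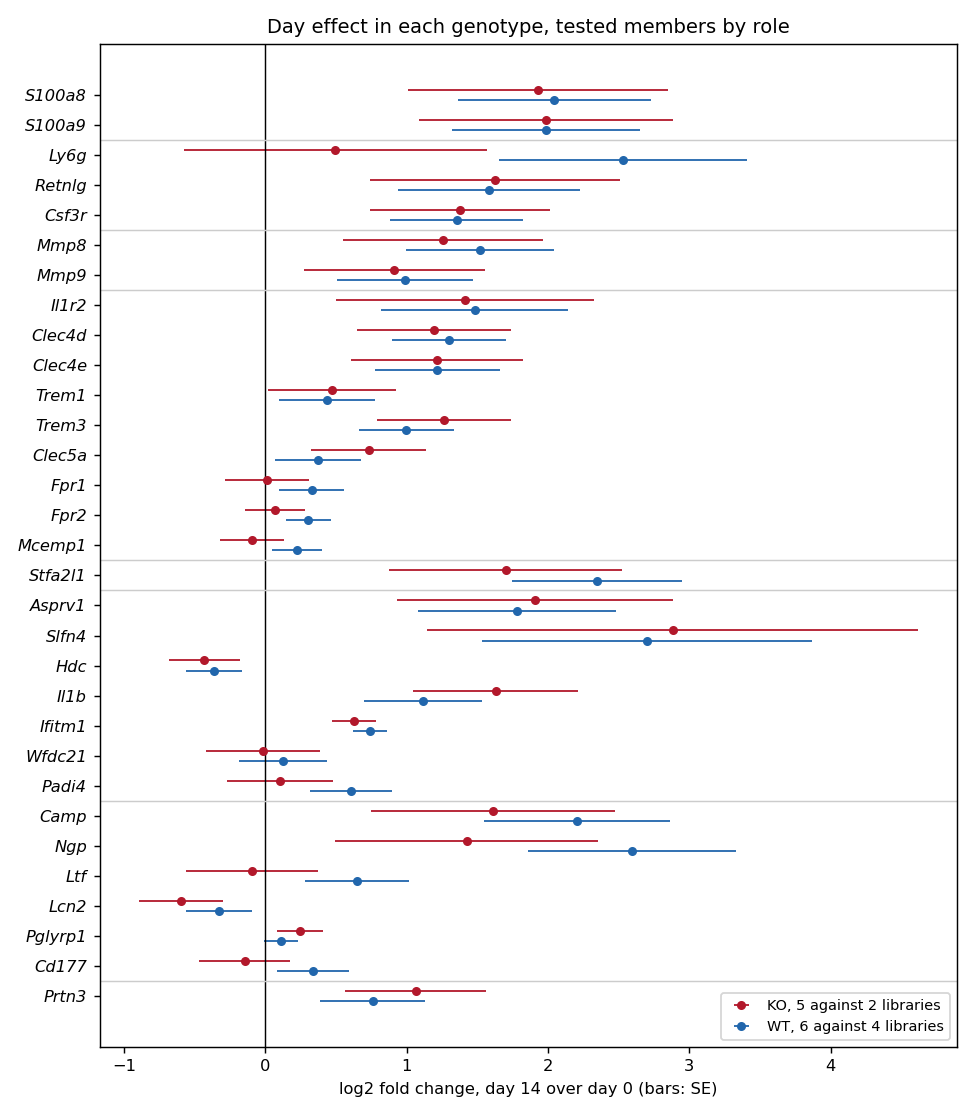
Log2 fold change of day 14 over day 0 (x axis, log2 units) for the 31 tested members (rows, grouped by role), in KO lungs (red, 5 against 2 libraries) and WT lungs (blue, 6 against 4 libraries), with SE bars. S100a8 stands at 1.93 in KO and 2.05 in WT lungs, while Lcn2 and Hdc lie below 0 in both.

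S100a8 and S100a9 encode the subunits of calprotectin, the main cytosolic protein of neutrophils. They had the highest FPKM of all members, with means over the 17 libraries of 256.9 FPKM for S100a9 and 146.5 FPKM for S100a8. S100a8 (ENSMUSG00000056054.9, chromosome 3) had 64.0, 9.12, 42.1, 29.7 and 133 CPM in KO lungs at day 14, against 18.3 and 10.9 CPM at day 0. In WT lungs it had 30.3, 38.7, 98.0, 23.7, 66.98 and 127 CPM at day 14, against 13.2, 10.8, 14.6 and 23.5 CPM at day 0. All 6 WT day 14 libraries lay above all 4 WT day 0 libraries, while KO day 14 library 2 lay below both KO day 0 libraries. The log2 fold change was 1.93 in KO lungs (SE 0.919, edgeR adjusted p = 0.56) and 2.05 in WT lungs (SE 0.681, adjusted p = 0.379). Without KO day 14 library 5 the KO value was 1.31, and without library 2 it was 2.19. The exact two-sided permutation test over libraries gave p = 0.286 in KO lungs, where 0.0952 is the smallest p that 21 splits allow, and p = 0.00952 in WT lungs, the smallest that 210 splits allow (0.114 after Benjamini-Hochberg adjustment over 36 tests of 9 genes in 4 comparisons).

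S100a9 followed its partner closely. It had 123, 17.5, 80.5, 63.2 and 252 CPM in KO lungs at day 14, against 33.2 and 20.8 CPM at day 0. In WT lungs it had 55.8, 75.6, 170, 48.5, 140 and 237 CPM at day 14, against 25.1, 19.3, 30.6 and 47.7 CPM at day 0. The WT groups again did not overlap, by a margin of less than 1 CPM, and KO library 2 again lay below both KO day 0 libraries. The log2 fold change was 1.98 in KO lungs (SE 0.902, edgeR adjusted p = 0.541) and also in WT lungs (SE 0.666, adjusted p = 0.385).

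**Figure D2:**
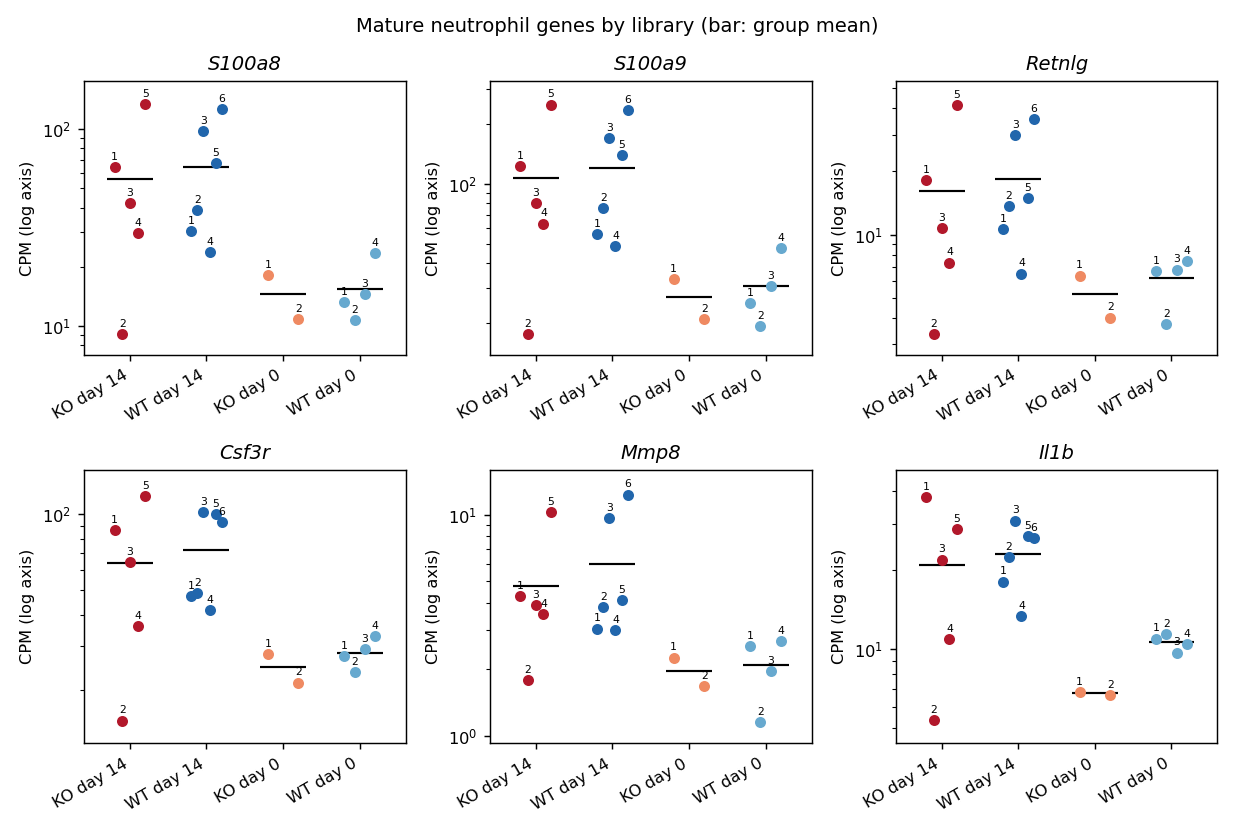
CPM (y axis, log scale) of 6 mature neutrophil genes in each library, numbered within its group, with group means as bars. WT day 14 libraries of S100a8 run from 23.7 to 127 CPM, and KO day 14 library 2 is the lowest point of the KO day 14 group in all 6 panels.

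Among the identity genes, Csf3r, the receptor for granulocyte colony-stimulating factor, separated the WT groups. It had 86.8, 15.2, 64.8, 35.99 and 118 CPM in KO lungs at day 14, against 27.9 and 21.5 CPM at day 0, and 47.4, 48.5, 102, 41.8, 100 and 93.3 CPM in WT lungs at day 14, against 27.4, 23.7, 29.1 and 32.9 CPM at day 0. Its log2 fold change was 1.38 in KO lungs (SE 0.635, edgeR adjusted p = 0.549) and 1.35 in WT lungs (SE 0.472, adjusted p = 0.397). Csf3r lies 9.17 Mb from Clic4 on chromosome 4, and Padi4 lies 5.47 Mb from it; the part of that distance in any KO value was not tested. Retnlg, a resistin-like secreted protein of neutrophils, had 18.2, 3.37, 10.7, 7.35 and 41.4 CPM in KO lungs at day 14, against 6.39 and 4.02 CPM at day 0. In WT lungs Retnlg had 10.6, 13.7, 29.7, 6.52, 14.9 and 35.5 CPM at day 14, against 6.71, 3.74, 6.81 and 7.49 CPM at day 0. Only WT day 14 library 4 reached into the WT day 0 range. The file spells this symbol Retnig, and it was matched by its ID, ENSMUSG00000022651.6.

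Ly6g, the surface antigen by which mouse neutrophils are usually identified, was scarce, with 189 counts in all 17 libraries. It had 0.412, 0.250, 0.157, 0.0721 and 0.989 CPM in KO lungs at day 14, against 0.353 and 0.149 CPM at day 0. In WT lungs it had 0.1497, 0.431, 0.935, 0.111, 0.591 and 1.60 CPM at day 14, against 0, 0.0913, 0.102 and 0.251 CPM at day 0. The groups overlapped in both genotypes. At this depth the KO log2 value of 0.49 (SE 1.07) and the WT value of 2.53 (SE 0.88) were not shown to differ, since their difference was -2.04 (SE 1.41, edgeR adjusted p = 0.988).

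The late granule proteases followed calprotectin. Mmp8, neutrophil collagenase, had 4.28, 1.79, 3.92, 3.57 and 10.3 CPM in KO lungs at day 14, against 2.26 and 1.68 CPM at day 0. In WT lungs Mmp8 had 3.05, 3.82, 9.67, 2.998, 4.1 and 12.3 CPM at day 14, against 2.55, 1.16, 1.964 and 2.69 CPM at day 0, with no overlap. Mmp9, gelatinase B, had 18.2, 5.29, 11.7, 7.42 and 36.9 CPM in KO lungs at day 14, against 9.99 and 6.78 CPM at day 0. In WT lungs Mmp9 had 10.5, 14.4, 27.8, 9.25, 17.3 and 23.0 CPM at day 14, against 7.81, 7.37, 9.62 and 9.67 CPM at day 0, and WT day 14 library 4 lay inside the day 0 range. The log2 fold changes of Mmp8 were 1.26 in KO and 1.52 in WT lungs, and those of Mmp9 were 0.91 in KO and 0.99 in WT lungs.

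Among the 9 surface receptors, the log2 fold changes in WT lungs ran from 0.22 to 1.48, and in KO lungs from -0.09 to 1.41. The higher ones belonged to Il1r2, the decoy receptor for interleukin-1, at 1.41 in KO and 1.48 in WT lungs, and to the C-type lectin receptors Clec4d, at 1.19 in KO and 1.299 in WT lungs, and Clec4e, at 1.21 in KO and 1.22 in WT lungs. Trem3, an activating receptor, stood at 1.26 in KO and 0.996 in WT lungs. The formyl peptide receptors, which sense bacterial peptides, were nearly level: Fpr1 at 0.01 in KO and 0.33 in WT lungs, and Fpr2 at 0.07 in KO and 0.30 in WT lungs. Trem1, Clec5a and Mcemp1 lay between -0.09 and 0.73 in both genotypes.

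Il1b, the proinflammatory cytokine interleukin-1 beta, had 37.9, 5.33, 21.9, 10.8 and 28.5 CPM in KO lungs at day 14, against 6.85 and 6.66 CPM at day 0. In WT lungs it had 18.0, 22.4, 30.8, 13.4, 26.9 and 26.4 CPM at day 14, against 10.9, 11.4, 9.65 and 10.4 CPM at day 0. All WT day 14 libraries exceeded all WT day 0 libraries, and 4 of 5 KO day 14 libraries exceeded both at KO day 0. Its log2 fold change was 1.63 in KO lungs (SE 0.584, edgeR adjusted p = 0.415) and 1.12 in WT lungs (SE 0.416, adjusted p = 0.434).

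Every library at day 14 lay above every library at day 0 in KO lungs for 4 members, Slfn4, Ifitm1, Trem3 and Prtn3, where 5.6% of all genes did so. In WT lungs 7 members did so, Mmp8, Ifitm1, Il1b, Csf3r, Clec4d, S100a8 and S100a9, where 1.2% of all genes did. Ifitm1 was the member of both sets. It encodes an interferon-induced transmembrane protein and is expressed beyond neutrophils. It had 46.2, 35.6, 40.7, 49.4 and 41.9 CPM in KO lungs at day 14, against 28.8 and 26.7 CPM at day 0. In WT lungs it had 38.4, 42.7, 42.1, 38.2, 42.4 and 61.0 CPM at day 14, against 27.4, 24.3, 28.8 and 25.2 CPM at day 0. The difference between days was smaller than for calprotectin, as were the gaps between replicates, and KO day 14 library 2 also lay above both KO day 0 libraries.

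The log2 fold change of Ifitm1 was 0.62 in KO lungs (SE 0.156, edgeR adjusted p = 0.211) and 0.74 in WT lungs (SE 0.119, adjusted p = 0.0574). Because both genotypes leaned the same way, the mean of their day effects was tested as well, a contrast chosen after seeing the data. On it Ifitm1 rose by 0.68 on the log2 scale (SE 0.0988, edgeR adjusted p = 0.0468), and it was the 1 member called, where 0.194% of all genes were. Leaving out 1 library kept that call in 8 of 17 cases and ended it in 9, and its adjusted p ran from 1.68e-07 to 0.119 over the 24 alternatives. At an unadjusted edgeR p under 0.05, 20 members were higher on this contrast, where 7.25% of all genes were. By that rule 2 members, Hdc and Lcn2, were lower, and 14% of all genes passed in either direction. DESeq2 called 15 members, all higher, where it called 2.9% of the genes to which it gave an adjusted p. Without KO day 14 library 2 edgeR called 4 members, Ifitm1, Clec4d, Stfa2l1 and Il1b, where 0.614% of all genes were called.

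The stefins are cysteine protease inhibitors encoded by near-identical copies on chromosome 16, so the split of reads among them is uncertain. Stfa2l1 was the only 1 of the 4 that was tested. It had 0.920, 0.208, 1.03, 0.685 and 1.98 CPM in KO lungs at day 14, against 0.282 and 0.298 CPM at day 0. In WT lungs Stfa2l1 had 0.449, 1.03, 2.05, 0.611, 2.56 and 2.14 CPM at day 14, against 0.170, 0.152, 0.339 and 0.502 CPM at day 0. Its log2 fold change was 1.70 in KO and 2.35 in WT lungs. Stfa2 had 11 counts in KO lungs at day 14, against 1 at day 0, and 23 in WT lungs at day 14, against 0 at day 0. With a floor of 3 counts set for the WT day 0 group, Stfa2 was 5.07-fold higher in WT lungs at day 14. That ratio is not a lower bound, since it leaves out the counting error of the 23 counts and the spread between libraries. Stfa1 had 1 count and Stfa3 had 5 in all libraries. A second ID that the file also names Stfa3, ENSMUSG00000071561.2, is BC100530 in the reference and had 157 counts. Its log2 fold change was 1.75 in KO and 2.82 in WT lungs. At day 0 it had at most 0.223 CPM in KO and 0.102 CPM in WT libraries. As with Ly6g, it passed the filter on low counts through its day 14 libraries alone. Its fold changes therefore rest in part on the libraries where it was high.

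The remaining mature members split. Asprv1, a retroviral-like aspartic protease, stood at a log2 fold change of 1.91 in KO and 1.78 in WT lungs, and Padi4, which citrullinates histones in neutrophil extracellular traps, at 0.10 in KO and 0.61 in WT lungs. Wfdc21 stood at -0.02 in KO and 0.13 in WT lungs. Hdc, the histamine-forming enzyme, which mast cells and basophils also express, ran the other way, with 69.5 to 146 CPM in KO lungs at day 14, against 106 and 154 CPM at day 0, and 72.4 to 112 CPM in WT lungs at day 14, against 107 to 132 CPM at day 0. Its log2 fold change was -0.43 in KO lungs (SE 0.251) and -0.37 in WT lungs (SE 0.196). Mast cell and basophil markers summed to 367 to 448 CPM in KO lungs at day 14, against 400 to 424 CPM at day 0, and to 369 to 462 CPM in WT lungs at day 14, against 414 to 457 CPM at day 0; their part in the Hdc values was not tested.

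**Figure D3:**
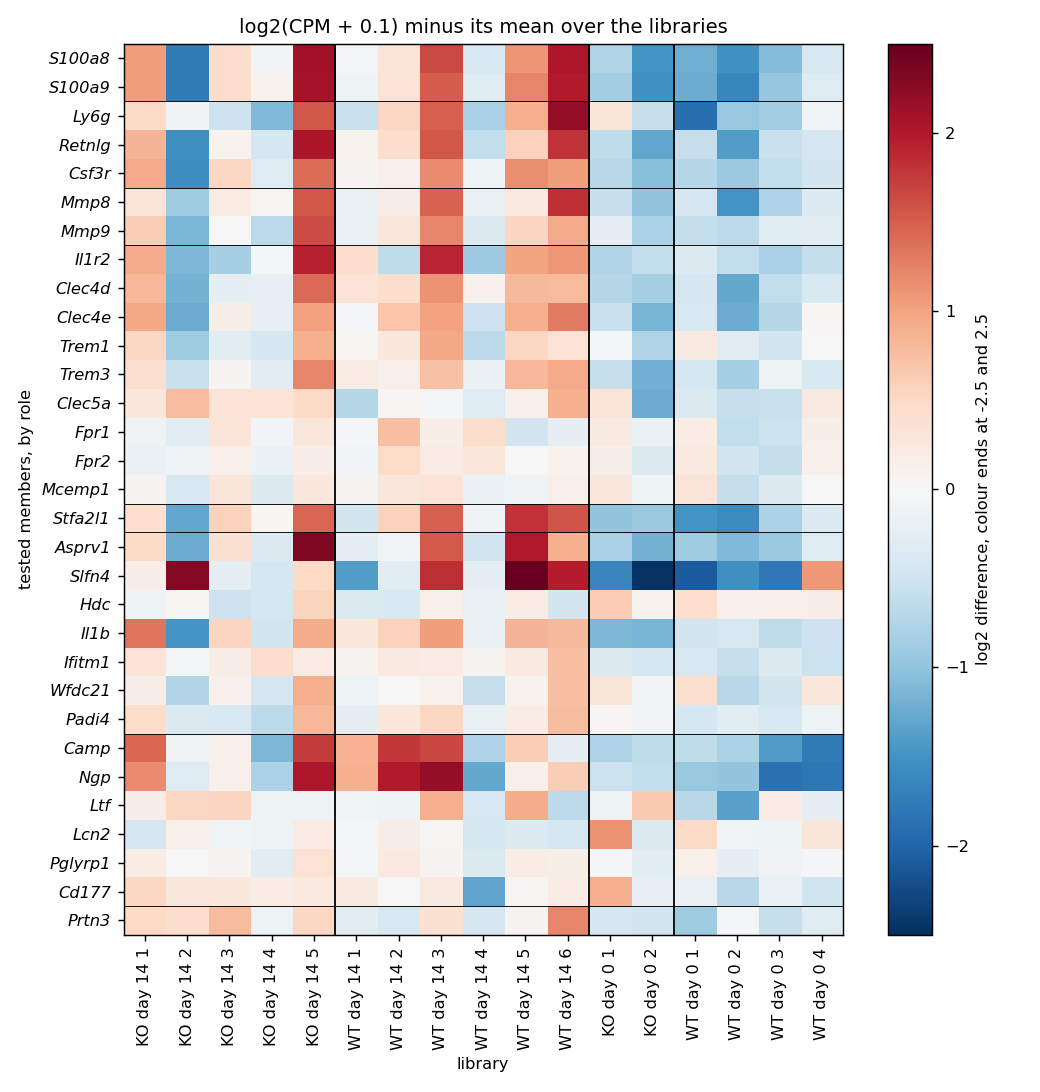
Log2(CPM + 0.1) of each tested member (rows, by role) minus its mean over the libraries (colour), in the 17 libraries (columns). KO day 14 library 5 and WT day 14 libraries 3, 5 and 6 are red over most mature genes, KO day 14 library 2 is blue there, and Slfn4, Camp and Ngp follow other orders.

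Slfn4, a Schlafen family gene of myeloid cells, did not follow calprotectin. It had 13, 56.9, 9.74, 8.50 and 16.3 CPM in KO lungs at day 14, against 3.6 and 2.01 CPM at day 0. In WT lungs it had 4.31, 9.55, 41.4, 9.80, 222 and 45.0 CPM at day 14, against 2.63, 3.896, 3.25 and 24.6 CPM at day 0. Its highest KO library, library 2, was the lowest of its group for S100a8. A list of 6 interferon-stimulated genes, Isg15, Ifit1, Ifit3, Rsad2, Oasl2 and Irf7, was set beside it after these values were seen. Their summed level was 2034 CPM in KO day 14 library 2 and 202 CPM in the lowest KO day 14 library, 2030 CPM in the highest WT day 14 library, which was library 5, and 677 CPM in WT day 0 library 4. These are the libraries where Slfn4 was highest in its group, and the part of interferon-stimulated cells in the Slfn4 values was not tested.

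Among the tested specific granule genes, Camp and Ngp had the highest log2 fold changes between the days, though not the highest levels. Their means over the 17 libraries were 2.349 and 3.753 FPKM, against 80.74 FPKM for Lcn2 and 46.11 FPKM for Ltf. Camp encodes cathelicidin, an antimicrobial peptide precursor. It had 2.82, 0.916, 1.07, 0.396 and 3.51 CPM in KO lungs at day 14, against 0.529 and 0.596 CPM at day 0. In WT lungs Camp had 1.86, 3.55, 3.30, 0.528, 1.54 and 0.816 CPM at day 14, against 0.594, 0.517, 0.305 and 0.215 CPM at day 0. In each genotype library 4 of day 14 was at the day 0 level and the other day 14 libraries were above it. Camp differed between the days by a log2 fold change of 1.61 in KO lungs (SE 0.864, edgeR adjusted p = 0.605) and 2.21 in WT lungs (SE 0.658, adjusted p = 0.304).

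Ngp encodes neutrophilic granule protein, a cystatin-like protein of the same granules. It had 6.03, 2.08, 2.88, 1.48 and 10.9 CPM in KO lungs at day 14, against 1.77 and 1.68 CPM at day 0. In WT lungs Ngp had 4.91, 10.6, 12.4, 1.03, 2.88 and 4.04 CPM at day 14, against 1.302, 1.28, 0.643 and 0.681 CPM at day 0. The libraries low for Camp were low for Ngp. For Ngp that value was 1.42 in KO lungs (SE 0.929, edgeR adjusted p = 0.675) and 2.59 in WT lungs (SE 0.736, adjusted p = 0.288), and the KO value was 0.86 without KO day 14 library 5.

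**Figure D4:**
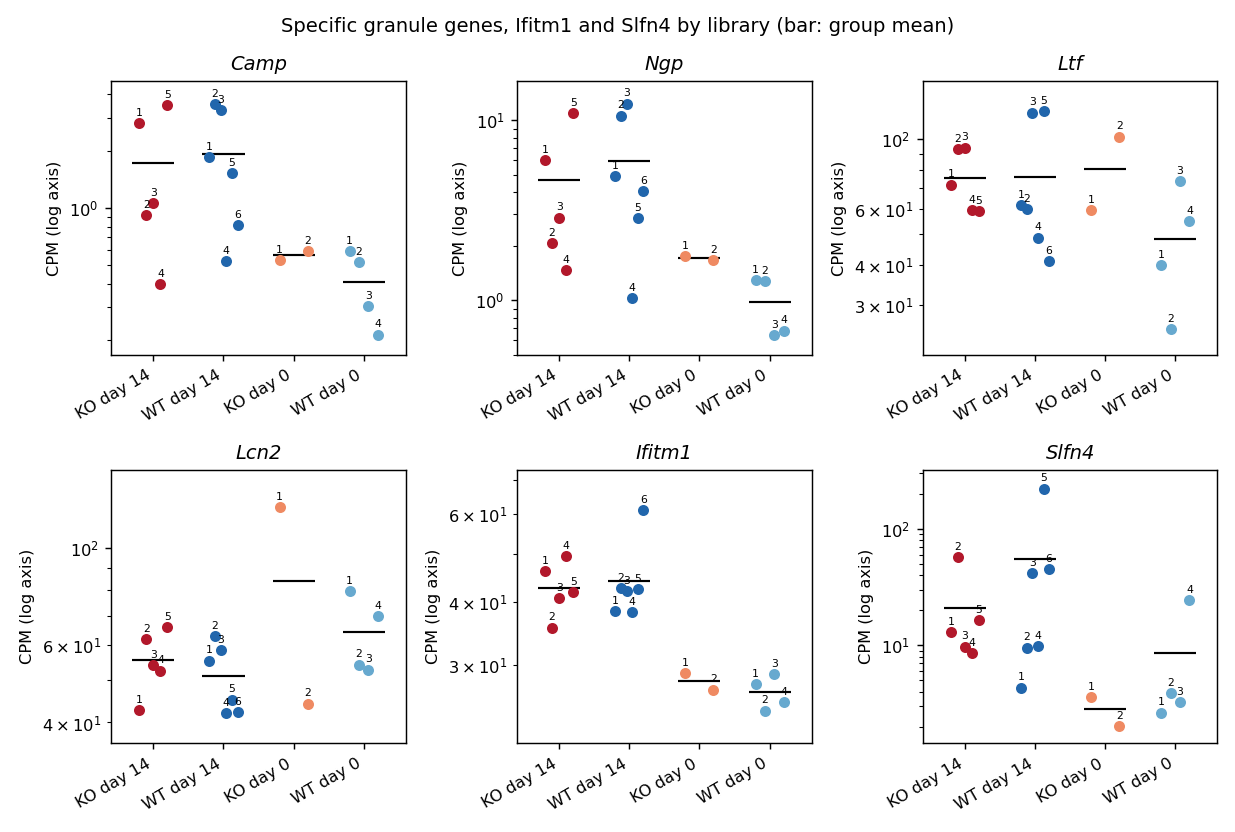
CPM (y axis, log scale) of 4 specific granule genes, Ifitm1 and Slfn4 in each library, numbered within its group, with group means as bars. Camp and Ngp reach 3.55 and 12.4 CPM in WT lungs at day 14, Ltf and Lcn2 overlap between days, and Ifitm1 shows day 14 libraries all above day 0 libraries.

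The other specific granule genes gave no such separation. Ltf, lactoferrin, which gland epithelium also makes, had 71.8, 93.3, 94.0, 59.7 and 59.2 CPM in KO lungs at day 14, against 59.7 and 102 CPM at day 0, and 62.0, 60.2, 121, 48.9, 123 and 41.3 CPM in WT lungs at day 14, against 40.1, 25.1, 73.6 and 55.2 CPM at day 0. Lcn2, the iron-carrier-binding lipocalin, which airway epithelium also makes, had 42.8, 61.9, 54.0, 52.5 and 65.9 CPM in KO lungs at day 14, against 124 and 44.2 CPM at day 0. In WT lungs Lcn2 had 55.3, 63.0, 58.5, 42.0, 45.1 and 42.2 CPM at day 14, against 79.6, 54.1, 52.8 and 69.9 CPM at day 0. The groups overlapped for both genes in both genotypes. For Lcn2 the log2 fold change was -0.60 in KO lungs (SE 0.297) and -0.33 in WT lungs (SE 0.234). Pglyrp1, a peptidoglycan-binding protein, and Cd177, a neutrophil surface glycoprotein, lay between -0.15 and 0.34 in both genotypes. Fcnb and Cebpe of this class were not tested, with 7 and 68 counts in all libraries.

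Transcripts of the azurophil granule were near the limit of detection. Elane, neutrophil elastase, had 3 counts in KO lungs at day 14, against 1 at day 0, and 6 in WT lungs at day 14, against 1 at day 0; no library exceeded 0.0833 CPM. Mpo, myeloperoxidase, had 0.159, 0.333, 0.157, 0.108 and 0.445 CPM in KO lungs at day 14, against 0.106 and 0.112 CPM at day 0. In WT lungs Mpo had 0.0898, 0.133, 0.292, 0.0278, 0.0394 and 0.0680 CPM at day 14, against 0, 0.0913, 0.0339 and 0.0358 CPM at day 0. Ctsg and Ms4a3 had 15 and 4 counts in all libraries. These 4 genes were too thinly counted to be tested at this depth.

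Prtn3, proteinase 3, was the azurophil gene with enough counts, 303 in all libraries. It had 0.825, 0.791, 1.03, 0.504 and 0.841 CPM in KO lungs at day 14, against 0.388 and 0.372 CPM at day 0. In WT lungs Prtn3 had 0.449, 0.398, 0.760, 0.389, 0.591 and 1.43 CPM at day 14, against 0.255, 0.548, 0.339 and 0.430 CPM at day 0. The KO groups did not overlap and the WT groups did. The log2 fold change was 1.06 in KO lungs (SE 0.499, edgeR adjusted p = 0.543) and 0.76 in WT lungs (SE 0.37, adjusted p = 0.558).

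Class medians of the log2 fold change were 1.2 in KO and 1.17 in WT lungs over the 22 mature genes tested, 1.08 in KO and 1.25 in WT lungs over the 2 late proteases, and 0.0743 in KO and 0.494 in WT lungs over the 6 specific granule genes. The last median joins Camp and Ngp, both above 1.4, with 4 genes below 0.7. A class score per library, the mean over its tested members of log2 CPM minus its mean over the 17 libraries, shows how far Camp and Ngp departed from the mature genes. In WT lungs at day 14, library 2 stood at 1.90 for Camp and Ngp and at 0.24 for the mature genes, while library 6 stood at 0.20 for Camp and Ngp and at 0.99 for the mature genes. In KO lungs at day 14, library 2 stood at -0.19 for Camp and Ngp and at -0.67 for the mature genes, while library 4 stood at -0.97 for Camp and Ngp and at -0.25 for the mature genes. KO libraries 5, 1 and 3 held the same first 3 places in both scores, so that in KO lungs only the last 2 places differed.

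Correlations were also read across the 11 day 14 libraries, KO and WT together. They were computed on log2 CPM for 31 relations, with p from 100000 permutations adjusted over them, and all genes of a library share its depth and composition. S100a8 ran with S100a9 at Pearson r = 1.0 (permutation p = 1e-05, the smallest these permutations give, adjusted 7.7e-05) and Spearman rho = 0.99 (permutation p = 2e-05, adjusted 0.00012), and without the 2 libraries farthest from the S100a8 median r was 0.99. Retnlg, Csf3r and Mmp9 followed at r = 0.98, 0.96 and 0.96. S100a8 ran with Ngp at r = 0.62 (permutation p = 0.043, adjusted 0.071) and rho = 0.68 (permutation p = 0.025, adjusted 0.041), and r was 0.53 without the 2 farthest libraries. With Camp it was r = 0.48 (permutation p = 0.14, adjusted 0.19) and rho = 0.48 (permutation p = 0.14, adjusted 0.18), and r was 0.36 without those 2. Camp and Ngp ran together at r = 0.93 (permutation p = 8e-05, adjusted 0.00028) and rho = 0.89 (permutation p = 0.00057, adjusted 0.0015), and r was 0.89 without the 2 libraries farthest from the Camp median. Lcn2 and Ltf stood at r = -0.14 and -0.07 with S100a8, and the specific granule genes Pglyrp1 and Cd177 at 0.60 and 0.26. The correlations did not divide by class, since some mature genes followed S100a8 less than Camp and Ngp did. Hdc, Slfn4, Fpr2, Clec5a and Fpr1 stood at r = 0.31, 0.21, 0.20, 0.15 and -0.01. The differences between these correlations were not tested.

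**Figure D5:**
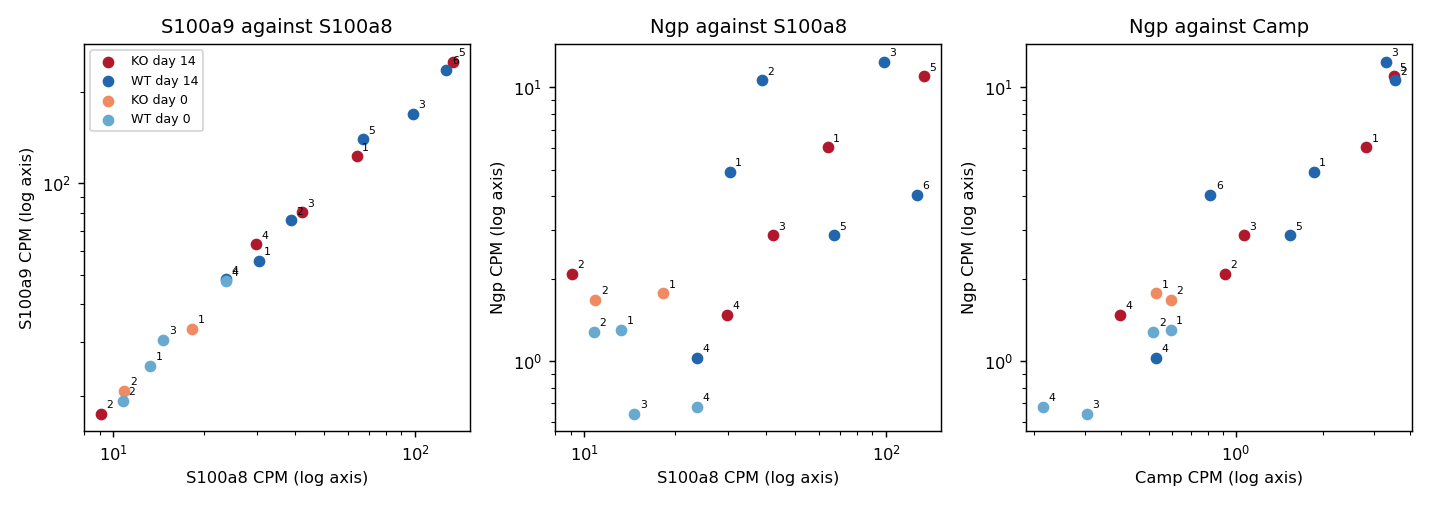
CPM of S100a9 against S100a8 (left), Ngp against S100a8 (middle) and Ngp against Camp (right), log scales, 1 point per library numbered within its group and coloured by group. S100a9 lies on a near-straight line with S100a8, r = 1.0 over the 11 day 14 libraries, while Ngp scatters against S100a8 at r = 0.62 and lines up with Camp at r = 0.93.

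KO and WT lungs were not shown to differ in any member. At day 14 edgeR called 0 of 31 members (0.107% of all genes were called), 0 had an unadjusted p under 0.05 (8.95% of all genes had) and 0 separated KO from WT libraries without overlap (0.977% of all genes did). DESeq2 called 0 as well (0.558% of the genes it could adjust). The log2 difference of KO minus WT lungs at day 14 was -0.21 for S100a8 (SE 0.585) and -0.37 for Ngp (SE 0.592), so differences of about 1 on this scale in either direction remain within the error. The median over members was -0.17, and it was 0.01 without KO day 14 library 2 and -0.51 without KO day 14 library 5.

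At day 0, with 2 KO against 4 WT libraries, edgeR called 0 members (0.0256% of all genes were called). Cd177 was the 1 member with an unadjusted p under 0.05 (6.74% of all genes had one), at 12.5 and 5.77 CPM in KO lungs, against 5.89, 4.11, 5.96 and 4.69 CPM in WT lungs, a log2 difference of 0.82 (SE 0.329, edgeR adjusted p = 0.712) with overlapping groups. Padi4, Il1b and Ngp had groups that did not overlap, where 18% of all genes had. For the day effect in KO minus that in WT lungs, edgeR called 0 members (0% of all genes were called) and 0 reached an unadjusted p under 0.05 (4.55% of all genes did); the value for S100a8 was -0.12 (SE 1.05). DESeq2 called 0 members at day 0 (0.133% of genes) and 0 for the difference of the day effects (0.047%).

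Of other neutrophil genes, a list of 16 of which 15 were tested, 0 were called in either genotype. At an unadjusted edgeR p under 0.05, 2 were higher and 1 lower in KO lungs, where 9.05% of all genes passed in either direction. In WT lungs 5 were higher and 1 lower, where 9.06% of all genes passed. The list's median log2 fold change was 0.274 in KO lungs (range -0.68 to 1.73) and 0.288 in WT lungs (range -0.53 to 2.08). Summed, the 16 genes had a median of 1360 CPM in KO lungs at day 14, against 1359 CPM at day 0, and 1315 against 1256 CPM in WT lungs. The KO maximum belongs to Cxcr2. Cxcr2, the chemokine receptor that draws neutrophils out of blood, had 27.1, 4.46, 16.8, 12.8 and 42.3 CPM in KO lungs at day 14, against 5.82 and 6.55 CPM at day 0, and 16.1, 15.1, 35.0, 13.1, 33.5 and 33.3 CPM in WT lungs at day 14, against 7.02, 4.66, 6.94 and 8.17 CPM at day 0. Its log2 fold change was 1.73 in KO lungs (SE 0.705, edgeR adjusted p = 0.483) and 1.86 in WT lungs (SE 0.52, adjusted p = 0.285). Cxcr2 was also the gene outside the list whose pattern over the 17 libraries was most like the mean of the mature members, at r = 0.954. Trpm2, Pla2g7, Trim30b, Il1f9, Mrgpra2b, Ccr1, Sycp2, Tpd52 and Msrb1 came next, at r between 0.919 and 0.942.

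The 6 subunits of the phagocyte NADPH oxidase, which neutrophils share with macrophages, had a median log2 fold change of 0.181 in KO and 0.018 in WT lungs, with 0 called and 0 at an unadjusted p under 0.05. Of 9 regulators of granulopoiesis, 8 were tested and 0 called. In KO lungs 5 had log2 fold changes above 0 and 3 below, with a median of 0.0982 (range -0.49 to 0.37). In WT lungs 2 were above 0 and 6 below, with a median of -0.127 (range -0.29 to 0.26). Cebpb and Cebpd, transcription factors of the C/EBP family, were below 0 in both. They stood at -0.49 and -0.25 in KO lungs and at -0.29 and -0.27 in WT lungs. Csf3, the growth factor whose receptor is Csf3r, was not tested. Markers of other cells of the blood and lung were read in the same libraries. Monocyte and macrophage markers, 11 genes, summed to 336 to 418 CPM in KO lungs at day 14, against 292 to 355 CPM at day 0. In WT lungs they summed to 321 to 445 CPM at day 14, against 306 to 394 CPM at day 0. The median log2 fold change of these 11 was 0.372 in KO lungs, where 8 were above 0, and 0.178 in WT lungs, where 9 were. Of all genes, 52.6% were above 0 in KO and 50.4% in WT lungs. None of the 11 was called, and their part in the neutrophil gene values was not tested. All 8 platelet and megakaryocyte genes tested had log2 fold changes above 0 between the days in both genotypes, and none was called in either. Their median was 0.764 in KO lungs, where 6 had an unadjusted edgeR p under 0.05, and 0.228 in WT lungs, where 0 had one. They summed to 53.3 to 104 CPM in KO lungs at day 14, against 45.0 and 46.6 CPM at day 0, and to 54.2 to 88.5 CPM in WT lungs at day 14, against 35.3 to 76.3 CPM at day 0. Of 7 alveolar type 2 genes, 5 were lower at day 14 in KO lungs at an unadjusted edgeR p under 0.05 and 0 in WT lungs. The median log2 fold changes of these 7 were -0.30 in KO and -0.05 in WT lungs. Their median log2 difference of KO minus WT lungs was 0.244 at day 0 and 0.03 at day 14. For the platelet and megakaryocyte genes it was -0.413 at day 0 and 0.072 at day 14. Both KO day effects rest on only 2 day 0 libraries. Of all genes, 9.05% had an unadjusted edgeR p under 0.05 in either direction in KO lungs and 9.06% in WT lungs. These shares stand beside the platelet and the alveolar type 2 counts. The part of either cell type in the neutrophil gene values was not tested. Eosinophil markers, 5 genes, summed to at most 11.8 CPM in any library. Red cell genes summed to 7738 to 31870 CPM in KO lungs at day 14, against 6480 and 14050 CPM at day 0, and to 6851 to 13170 CPM in WT lungs at day 14, against 5811 to 13220 CPM at day 0. KO day 14 library 5 was the highest library both for red cell genes and for S100a8, while WT day 14 library 6, the next for S100a8, had 6851 CPM of red cell genes. The part of retained blood in the neutrophil gene levels was not tested.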

How the data were processed

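Lung RNA was sequenced in 17 libraries, with Qiagen RNeasy and Illumina TruSeq v4 per the labels' protocols. Tools listed in the submitters' processing notes are RSEM 1.3.0, STAR 2.5.3 and limma 3.38.3, with build mm10, and the annotation release is not given in the sources used here. The authors deposited tables of expected counts, the unit in which RSEM estimates reads per gene, 1 per library, and 1 table of FPKM values. Group sizes follow the sample labels, and the series' design text gives others. Expected counts were rounded. Genes were filtered with filterByExpr by group (19557 left) and fitted in 1 edgeR 4.0.16 model of 4 groups (TMM, glmQLFit robust, glmQLFTest, R 4.3.3), with Benjamini-Hochberg adjustment over all genes and calls under 0.05. CPM use TMM-scaled library sizes, log2 CPM a prior count of 2, and SE is the absolute log2 fold change over the square root of F. DESeq2 1.42.0 and limma 3.58.1 were alternatives, with log2(FPKM + 1) and log2(FPKM + 0.1) for FPKM. Exact permutation tests used SciPy 1.17.1. The code was tested on simulated data. Libraries of a group differed by a chi-square per gene of 12.43 to 69.4, so none is a copy. Symbols and gene coordinates come from GENCODE on GRCm38, the assembly of mm10, and those of the promoter windows from RefSeq. Named in full were a list of 15 members and any called; the rest are given by range. Context lists are given mostly by counts, medians or sums, and the alveolar macrophage, proliferation, fat and lymphocyte lists are not given. The plan to name called context genes, or otherwise the 2 of each list with the highest FPKM, was not followed for most lists. Clec4d, Stfa2l1, Cxcr2, Slfn4 and the interferon genes were named after their values were seen. The members and lists were chosen with earlier results of these data known.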

Additional observations from a re-analysis of the deposited data

Results flagged for a closer look

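Dixon's 95% criterion was read on CPM in 93 gene and group pairs with 4 to 10 libraries. In 8 of them a library was set far apart from the rest of its group. For normally distributed values chance flags about 1 in 20, or 4.7 pairs. CPM need not be so distributed, and many members ran together across libraries, so the chance rate in these data is not known. Slfn4 was set apart in all 3 groups that could be examined, at 56.91 CPM in KO day 14 library 2, 222.0 CPM in WT day 14 library 5 and 24.58 CPM in WT day 0 library 4. Asprv1 stood at 9.593 CPM in KO day 14 library 5, where the others had at most 2.57 CPM. In WT day 14 library 6, Ifitm1 stood at 61.03 CPM, above at most 42.7 CPM in the others, and Prtn3 at 1.427 CPM, above at most 0.760 CPM. Cd177 stood at 9.577 CPM in KO day 14 library 1, above at most 8.16 CPM in the others, and at 2.61 CPM in WT day 14 library 4, below at least 6.60 CPM in the others.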

How the results depend on the processing

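No result changed sign while called. In KO lungs, members called were 1 with DESeq2 (of 93 genes called in all) against 0 with edgeR (of 0). In WT lungs they were 1 with RLE factors (of 3), 1 with no filter on low counts (of 5) and 5 with DESeq2 (of 113), against 0 (of 0). On the mean of both genotypes, the contrast chosen after seeing the data, they were 15 with DESeq2 (of 490) and 0 on log2(FPKM + 1) with no filter (of 15), against 1 (of 38). On log2(FPKM + 1) the median log2 fold change was 0.54 with the filter and 0.27 without it in KO lungs, 0.43 without it in WT lungs, and 0.60 with it and 0.35 without it on the mean of both; this scale understates low genes. Leaving out 1 library gave 0 to 1 members called in WT lungs, 0 to 4 on the mean of both genotypes and 0 in the other comparisons. The medians then ran from 0.743 to 1.24 in KO lungs, 0.882 to 1.11 in WT lungs and 0.952 to 1.21 on the mean of both. Of 4586 other values over 25 settings, 4335 kept direction and side of the threshold. The causes were not tested. Depth limits Ly6g, the stefins and the azurophil genes. No paired analysis was possible because the labels give the groups no shared replicate numbers.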
